A study of Mus musculus with 18 samples.

Results

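The 4 genotypes WT, Tbk1+/-, Tak1ΔM/+ and Tbk1+/-;Tak1ΔM/+ form a square in which each allele is present with and without the other. They take up 12 of the 18 libraries of the study, 3 for each genotype. For every gene the change with the Tak1ΔM allele on the Tbk1+/- background was set against the change with the same allele on the WT background. The difference of these log2 changes, (Tbk1+/-;Tak1ΔM/+ minus Tbk1+/-) minus (Tak1ΔM/+ minus WT), is called the interaction. It is 0 where the changes with either allele alone add up, above 0 where the cells with both alleles lie above that additive level, and below 0 where they lie below it. The other 6 libraries carry Ripk1 D138N alleles and enter no arm of the square.

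The cells were primary microglia of C57BL/6 mice, taken from the forebrain at postnatal day 2 and grown for 7 days before and 7 days after a change of medium. Tbk1+/- cells keep 1 working copy of Tbk1, and Tak1ΔM/+ cells carry the ΔM allele beside 1 normal copy of Tak1, the gene Map3k7. The labels do not name the driver or the cells that the ΔM allele is restricted to. They also leave unsaid whether replicates are different mice or flasks. The p-values measure only the spread between these libraries, part of which may be technical.

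TBK1 and TAK1 are kinases that act downstream of the tumor necrosis factor receptor and of toll-like receptors. TAK1 switches on the NF-kB and MAP kinase arms, and TBK1 activates the transcription factor IRF3, which induces type I interferon. Both also phosphorylate RIPK1 and hold back its kinase activity, which can start cell death and inflammation. In microglia the interferon response shows as a set of antiviral genes that signalling from the interferon receptor turns on. The series title asks how TBK1 restrains RIPK1 in development and aging.

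Total counts of the 12 libraries ran from 8016559 to 21604322, and 15548 to 17433 genes had counts. Microglia markers were high in every library. Their 12 genes summed to between 11401 and 13151 CPM (counts scaled to 1e+06) of the library total in Tbk1+/-;Tak1ΔM/+, 11527 to 12825 in Tak1ΔM/+, 10890 to 12087 in Tbk1+/- and 10393 to 11667 in WT. The mitochondrially encoded share of counts differed between genotypes. It averaged 0.463% ± 0.0824 in Tbk1+/-;Tak1ΔM/+, 1.12% ± 0.583 in Tak1ΔM/+, 2.01% ± 0.191 in Tbk1+/- and 1.24% ± 0.499 in WT (SD, n = 3 each). Replicate 1 of Tak1ΔM/+ at 0.453% and replicate 3 of WT at 0.671% stood with the Tbk1+/-;Tak1ΔM/+ libraries. Y-linked genes summed to 75.9 to 99.5 CPM in Tbk1+/-;Tak1ΔM/+, 0 to 3.02 CPM in Tak1ΔM/+, 59.8 to 187 CPM in Tbk1+/- and 0 to 107 CPM in WT, so the make-up by sex differed over the square. Replicates 1, 2 and 3 were at 107, 50.2 and 0 CPM in WT and at 59.8, 187 and 123 CPM in Tbk1+/-. Make-up by sex thus also differed between replicates of WT.

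Tbk1 itself followed its genotype. It had 55.1, 56.5 and 66.0 CPM in Tbk1+/-;Tak1ΔM/+, 133, 106 and 88.1 CPM in Tak1ΔM/+, 50.6, 65.7 and 57.2 CPM in Tbk1+/-, and 106, 104 and 149 CPM in WT. The libraries of both Tbk1+/- genotypes were below all others, the average change with the Tbk1 allele was -0.96 ± 0.13 on the log2 scale (SE, adjusted p = 0.0108), and the interaction was 0.17 ± 0.26 (adjusted p = 0.807). Map3k7 averaged 11.3 ± 4.62 CPM in Tbk1+/-;Tak1ΔM/+, 8.77 ± 1.32 in Tak1ΔM/+, 13.4 ± 1.38 in Tbk1+/- and 13.5 ± 4.95 in WT (SD, n = 3 each). Its average change with the Tak1 allele was -0.43 ± 0.23 (SE, adjusted p = 0.26), so the level of Map3k7 did not check the Tak1ΔM labels. Ripk1 had an interaction of 0.99 ± 0.47 (adjusted p = 0.312) and was higher with the Tak1 allele on average by 1.21 ± 0.24 (adjusted p = 0.00747). The interaction of Ripk1 was called in 1 of 24 alternative settings.

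Of 12943 genes tested, 128 had an interaction at an adjusted p under 0.05, here called, which is 0.989% of the genes tested. The interaction was above 0 for 46 of them (0.355%) and below 0 for 82 (0.634%). Without a correction for many tests, 2125 genes had a p under 0.05. By class, 81 genes were synergistic, meaning that Tbk1+/-;Tak1ΔM/+ departed from WT further than either allele alone and in the direction of the interaction. Of these, 24 lay above WT and 57 below. The remaining 47 were opposing, meaning that cells with both alleles stood closer to WT than cells with 1 of the alleles. No gene was less than additive in between. The class is a matter of degree, since for 45 of the 128 genes the sizes compared differed by less than 0.3 on the log2 scale.

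The change in Tak1ΔM/+ against WT was under 0.5 in size for 93 of 128 called genes (75.1% of all genes tested), the change in Tbk1+/- against WT for 68 (74.1%), and both for 60 (61.9%). The change with the Tak1 allele was larger in size on the Tbk1+/- background for 114 of 128 and had opposite signs on the backgrounds for 92. The genes were called on the difference of these changes, so nothing is read from these counts. Across all genes, which are not independent replicates, the changes on the backgrounds had a Pearson correlation of 0.05 and a Spearman correlation of 0.19 (no library is shared between them). The libraries of Tbk1+/-;Tak1ΔM/+ lay above all 9 other libraries for 31 called genes (4.80% of all genes tested do so) and below all 9 for 70 (4.69%), and overlapped the others for 27. The sign of the interaction, taken from the same counts, was the same on the linear CPM scale for all 128.

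**Figure D1:**
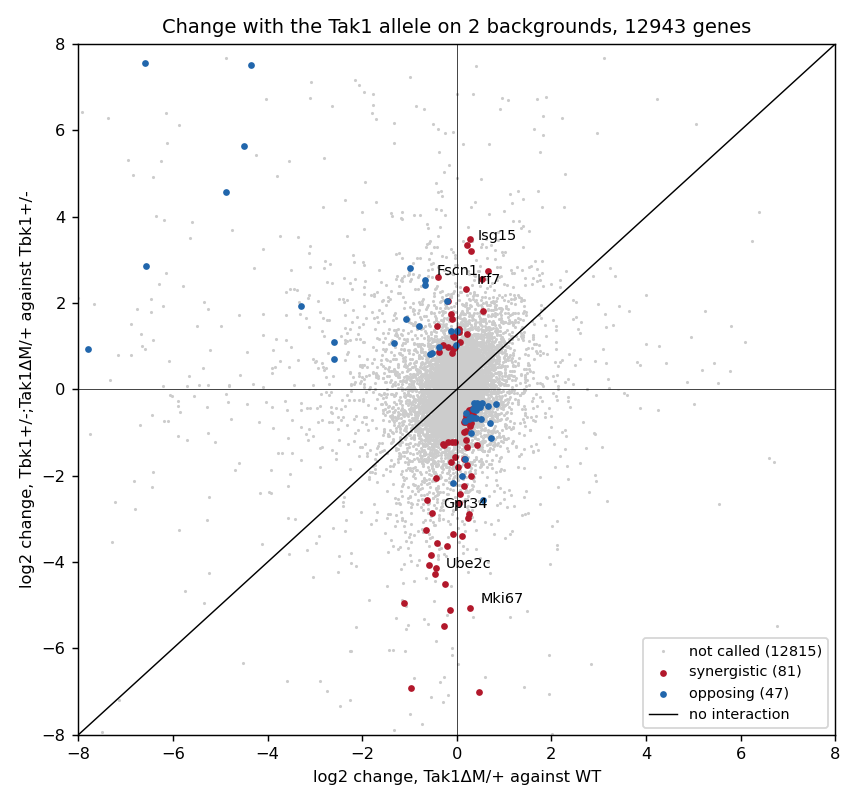
Each point is a gene, placed by its log2 change in Tak1ΔM/+ against WT (x axis) and in Tbk1+/-;Tak1ΔM/+ against Tbk1+/- (y axis), with the line of no interaction. The 81 synergistic genes in red spread along the y axis near x = 0. The 47 opposing genes in blue lie mostly, though not all, in the upper left and lower right. In total 7 genes fall outside the axes, which end at 8.

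The number of calls depended on single libraries, and many adjusted p-values lay close to the threshold. Just inside it stood Rad18, Fscn1 and Ccnd2 (adjusted p = 0.0495 each), and just outside Pantr1 (0.0504), Cnn2 (0.0506) and Kif22 (0.0506). Leaving out replicate 1, 2 or 3 of Tbk1+/-;Tak1ΔM/+ gave 0, 1 and 4 calls. Leaving out those of Tak1ΔM/+ gave 379, 2 and 6, those of Tbk1+/- 2, 689 and 10, and those of WT 2, 1 and 11. The low-count filter was applied anew in each of these fits, which tested 13511 to 13646 genes against 12943 with all libraries. The counts therefore also hold the effect of the changed filter. Of the 128 genes, 126 stayed called without replicate 1 of Tak1ΔM/+ and all 128 without replicate 2 of Tbk1+/-, while 0 to 9 did without any 1 of the other 10 libraries. The class counts moved as well, from 0 to 280 synergistic and from 0 to 409 opposing genes with a library left out. Without replicate 2 of Tbk1+/- the opposing genes outnumbered the synergistic ones, 409 against 280, while DESeq2 gave 359 synergistic and 333 opposing. With 0 calls, after replicate 1 of Tbk1+/-;Tak1ΔM/+ was left out, all 128 genes kept their sign and the largest adjusted p among them was 0.153. DESeq2 called 692 genes, all 128 among them. With the mitochondrial share as a covariate there were 0 calls in edgeR (721 genes at an unadjusted p under 0.05), and with the Y-linked level 11. The interaction of all 128 genes kept its sign in each of the 12 fits with a library left out and with both covariates, and the median ratio to the value given here was 0.82 for the mitochondrial fit and between 0.95 and 1.07 with a library left out. These fits reuse the same counts, so a kept sign is no separate support. The part of the mitochondrial share and of sex in the differences was not tested. Scaling by library totals alone moved the median interaction of all genes from near 0 to 0.21 and gave 54 calls, of which 72.2% were above 0, against 35.9% with TMM scaling.

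Interferon response genes had the highest median interaction of the 23 biological gene lists, which leave out the cell type marker and sex-linked lists. Of the lists left out, sex-linked genes (4.53), oligodendrocyte lineage markers (3.44) and neuron markers (3.11) had higher medians. Members and lists were chosen with earlier results of these data known, so the rank depends partly on that choice. Of 44 tested genes of the type I interferon list, 7 were called, all above 0, and 42 of 44 had an interaction above 0. The median was 1.44 on the log2 scale, against -0.0027 for all genes tested. Over all 12943 genes tested, 0.355% were called above 0 and 0.634% below 0. The interaction was above 0 for 6449 of them and below 0 for 6494. These shares are the background of the list and family counts that follow. Besides Isg15, Irf7, Usp18 and Oas2, the called members were Slfn5, Oas1a and Stat2, of which Oas1a and Stat2 are named here because the count is small.

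Isg15 encodes a ubiquitin-like protein that is joined to other proteins in the antiviral response. It lies on chromosome 4 (156199424 to 156200818, GRCm38, minus strand). It had 26.1, 25.4 and 25.8 CPM in Tbk1+/-;Tak1ΔM/+, 6.15, 5.63 and 6.32 CPM in Tak1ΔM/+, 1.88, 2.63 and 3.12 CPM in Tbk1+/-, and 6.02, 4.13 and 5.46 CPM in WT. The cells with both alleles stood far above every other library, and Tbk1+/- was the lowest genotype without overlap. The separate changes added up to 2.94 CPM, so the level in Tbk1+/-;Tak1ΔM/+ was 8.76 times the additive one. The interaction was 3.13 ± 0.35 (SE, adjusted p = 0.00637), and it was called with 11 of the 12 libraries left out in turn, the exception being replicate 1 of Tbk1+/-;Tak1ΔM/+ (adjusted p = 0.0521). Once the mitochondrial share was a covariate the value was 2.89 (adjusted p = 0.485).

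Irf7, the transcription factor that amplifies interferon production, had 92.7, 91.4 and 88.2 CPM in Tbk1+/-;Tak1ΔM/+, 20.6, 26.4 and 28.4 CPM in Tak1ΔM/+, 18, 25.4 and 10.8 CPM in Tbk1+/-, and 18.3, 17.1 and 30.4 CPM in WT. The genotypes without both alleles overlapped each other, while the cells with both alleles stood apart. The interaction was 2.13 ± 0.39 (SE, adjusted p = 0.0426).

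Usp18, which removes ISG15 from proteins and dampens the interferon receptor, had 29.8, 38.0 and 35.8 CPM in Tbk1+/-;Tak1ΔM/+, 5.87, 8.57 and 10.1 CPM in Tak1ΔM/+, 3.24, 7.89 and 4.32 CPM in Tbk1+/-, and 6.21, 4.42 and 4.82 CPM in WT. Oas2, a sensor of viral RNA, had 20.5, 24.9 and 28.0 CPM in Tbk1+/-;Tak1ΔM/+, 3.19, 5.11 and 3.09 CPM in Tak1ΔM/+, 4.68, 2.92 and 4.45 CPM in Tbk1+/-, and 2.47, 2.59 and 9.88 CPM in WT. For both genes, every library with both alleles was above every other. The interaction was 2.08 ± 0.45 for Usp18 (adjusted p = 0.0485) and 3.0 ± 0.66 for Oas2 (adjusted p = 0.0495).

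Further members of these families were counted by gene symbol after the values were seen. Of 11 tested Ifi200 genes 2 were called and all 11 were above 0 (median 1.26), of 8 Oas genes 2 were called and 7 were above 0 (median 1.73), and of 7 Schlafen genes 2 were called and 6 were above 0 (median 0.68). Over all genes tested, 0.355% were called above 0 and 6449 of 12943 lay above 0. Slfn5 and Slfn8 had interactions of 2.01 ± 0.38 and 1.89 ± 0.33 (adjusted p = 0.0426 and 0.0352), and Phf11d, a further gene above 0, had 1.88 ± 0.39 (adjusted p = 0.0464). Genes of these families are near-identical in part, so reads may have been split between them.

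The mean of the 44 interferon genes was 5.33, 5.33 and 5.30 log2 CPM in Tbk1+/-;Tak1ΔM/+, 3.43, 4.09 and 4.04 in Tak1ΔM/+, 3.09, 4.0 and 3.15 in Tbk1+/-, and 3.66, 3.64 and 3.93 in WT. Replicate 2 of Tbk1+/- stood above the other libraries of its genotype. The number of called members ran from 0 to 27 when a library was left out, and the 27 were reached without that replicate. The median stayed between 1.19 and 1.86. Adding the mitochondrial share as a covariate gave 1.56 (0 called) and adding the Y-linked level 1.61 (3 called).

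Promoters of Isg15 of the interferon list, of Cxcl10, an interferon-induced gene called on the cytokine list, and of 3 mitosis genes are shown because the results turn on these genes. Sequences of the 250 bases before the gene start came from RefSeq (GRCm38.p6) and were found for 9525 of the 12943 genes tested. GAAA followed by 2 bases of any kind and GAAA again, the core of the interferon-stimulated response element, was searched on both strands, with overlaps allowed. It was present in 2.86% of all 9525 promoters, in 16 of 32 promoters of the interferon list (50%), in 4 of the 5 called list members with a promoter, in 8 of 41 promoters of genes called above 0 (19.5%) and in 3 of 57 of genes called below 0 (5.26%). Isg15 (chr4:156200819-156201068, minus strand) had 3 overlapping matches and Cxcl10 (chr5:92348890-92349139, minus strand) had 1, and capitals mark them. Irf7 had 0 matches in this window. The gene start used for it lay 57 bases from that of the GENCODE annotation, against 0 for Isg15 and Cxcl10. A match describes the letters in this window.
Isg15: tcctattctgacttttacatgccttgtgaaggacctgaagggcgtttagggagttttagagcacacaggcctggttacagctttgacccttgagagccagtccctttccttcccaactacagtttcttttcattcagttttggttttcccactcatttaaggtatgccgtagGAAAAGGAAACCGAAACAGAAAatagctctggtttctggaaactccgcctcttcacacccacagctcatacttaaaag
Cxcl10: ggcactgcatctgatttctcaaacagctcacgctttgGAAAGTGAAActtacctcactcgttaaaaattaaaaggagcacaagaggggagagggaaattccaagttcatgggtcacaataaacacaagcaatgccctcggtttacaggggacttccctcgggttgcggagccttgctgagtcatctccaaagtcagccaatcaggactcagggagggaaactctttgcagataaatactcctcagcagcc

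**Figure D2:**
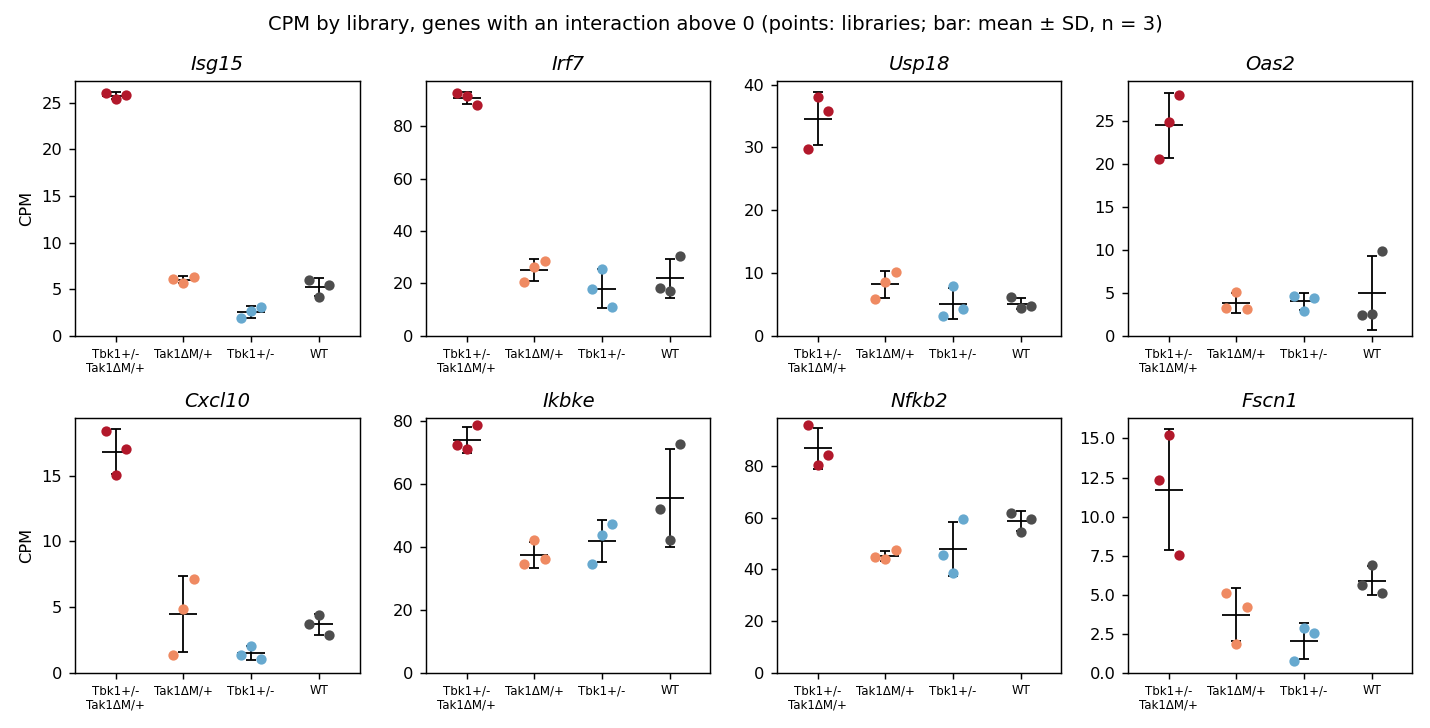
CPM in each library for 8 genes with an interaction above 0, by genotype, with points for libraries and bars for the mean ± SD of 3. Isg15, Irf7, Usp18, Oas2, Cxcl10 and Nfkb2 had every Tbk1+/-;Tak1ΔM/+ library above the 9 others, with Isg15 at 25.4 to 26.1 CPM, as had Fscn1, while Ikbke overlapped 1 WT library.

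Outside the interferon list, single members of the inflammatory lists were called. Cxcl10, a chemokine that interferon and NF-kB both induce, had 18.4, 15 and 17.1 CPM in Tbk1+/-;Tak1ΔM/+, 1.37, 4.87 and 7.15 CPM in Tak1ΔM/+, 1.35, 2.06 and 1.06 CPM in Tbk1+/-, and 3.74, 4.42 and 2.85 CPM in WT. The cells with both alleles were above all others, and the interaction was 3.22 ± 0.67 (SE, adjusted p = 0.0464). It was the 1 called of 22 tested cytokines and chemokines, of which 17 were above 0 (median 0.57).

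Nfkb2, the precursor of the p52 subunit of NF-kB, had 95.7, 80.4 and 84.4 CPM in Tbk1+/-;Tak1ΔM/+, 44.7, 43.8 and 47.5 CPM in Tak1ΔM/+, 45.4, 38.7 and 59.3 CPM in Tbk1+/-, and 61.8, 54.5 and 59.6 CPM in WT. Either allele alone lay lower than or within the range of WT, and the cells with both alleles were higher than all. The interaction was 1.24 ± 0.22 (adjusted p = 0.0384). It was the 1 called of 30 NF-kB target and feedback genes, of which 22 were above 0 (median 0.33).

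Ikbke encodes IKKε, the kinase most related to TBK1. It had 72.2, 70.9 and 78.8 CPM in Tbk1+/-;Tak1ΔM/+, 34.4, 42.2 and 36 CPM in Tak1ΔM/+, 34.5, 43.7 and 47.2 CPM in Tbk1+/-, and 52.0, 42.2 and 72.7 CPM in WT. Cells with both alleles were above all libraries but replicate 3 of WT, and Ikbke was classed as opposing with an interaction of 1.39 ± 0.27 (adjusted p = 0.0426). It was the 1 called of 32 tested components of the TNF, RIPK1, TBK1 and TAK1 pathway, of which 22 were above 0 (median 0.26). No gene of the intrinsic apoptosis list was called by edgeR, DESeq2 or either limma fit among 18 tested (0 in edgeR at an unadjusted p under 0.05, and 0.989% of all genes called), and the list median was -0.0016. Its smallest p-values belonged to Apaf1, the scaffold of the apoptosome, at 0.46 ± 0.27 (adjusted p = 0.437), and to Xiap, a caspase inhibitor, at 0.38 ± 0.23 (adjusted p = 0.449).

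The opposing class with a mean of at least 5 CPM was led by Fscn1, Dlgap5, Mmp14, Ccnd2 and Wdhd1. Fscn1, an actin-bundling protein, had 12.3, 15.3 and 7.56 CPM in Tbk1+/-;Tak1ΔM/+, 5.10, 1.82 and 4.19 CPM in Tak1ΔM/+, 0.724, 2.86 and 2.52 CPM in Tbk1+/-, and 5.64, 6.89 and 5.11 CPM in WT. Replicate 1 of Tak1ΔM/+ (5.10 CPM) was level with replicate 3 of WT (5.11 CPM). The other libraries with 1 allele were below every WT library, and every library with both was above. The interaction was 3.19 ± 0.70 (adjusted p = 0.0495).

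Mmp14, a membrane metalloprotease, averaged 19.3 ± 4.23 CPM in Tbk1+/-;Tak1ΔM/+, 7.68 ± 4.76 in Tak1ΔM/+, 3.61 ± 2.22 in Tbk1+/- and 12.4 ± 4.29 in WT (SD, n = 3 each). Ccnd2, a D-type cyclin of the G1 phase, averaged 11.1 ± 3.33 CPM in Tbk1+/-;Tak1ΔM/+, 3.56 ± 1.40 in Tak1ΔM/+, 3.65 ± 1.63 in Tbk1+/- and 7.41 ± 1.81 in WT. Wdhd1, a replication fork protein, averaged 10.1 ± 1.93 CPM in Tbk1+/-;Tak1ΔM/+, 3.30 ± 1.18 in Tak1ΔM/+, 4.73 ± 1.64 in Tbk1+/- and 8.29 ± 2.06 in WT. In each of the 3 genes both genotypes with 1 allele averaged below WT and the genotype with both averaged above it. The interactions were 3.08 ± 0.66, 2.69 ± 0.59 and 2.42 ± 0.51 (adjusted p = 0.0485, 0.0495 and 0.0468).

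Ralgds and Rgl1, exchange factors for Ral GTPases, both had interactions above 0. Ralgds averaged 34.1 ± 3.16 CPM in Tbk1+/-;Tak1ΔM/+, 15.2 ± 4.75 in Tak1ΔM/+, 12.3 ± 1.38 in Tbk1+/- and 26.4 ± 9.87 in WT, and was classed as opposing at 2.27 ± 0.39 (SE, adjusted p = 0.0352). Rgl1 averaged 42.8 ± 5.61 CPM in Tbk1+/-;Tak1ΔM/+, 15.4 ± 8.30 in Tak1ΔM/+, 4.65 ± 1.43 in Tbk1+/- and 12.4 ± 0.441 in WT, and was synergistic at 2.89 ± 0.50 (adjusted p = 0.0353). In both genes the cells with both alleles had the highest average and the Tbk1+/- cells the lowest.

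Of the 128 called genes, 13 had a mean under 5 CPM, 11 of them above 0. In 5 of these, Lsamp, Tspan12, Stk39, Slc13a3 and Acsbg1, named after their values were seen, at least 1 of the single-allele genotypes had no counts in any of its 3 libraries. Fitted values of such genes, which reach 14.16, depend on the prior count and are no measure of a fold change.

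Mitotic genes had the lowest median interaction of the 23 biological gene lists. Of 26 tested genes of the mitosis list 5 were called, all below 0, and all 26 had an interaction below 0 (median -2.80). Over all genes tested, 0.634% were called below 0 and 6494 of 12943 lay below 0. Levels of the mitosis genes in Tbk1+/- were high in replicates 1 and 3 and lower in replicate 2.

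Mki67 encodes Ki-67, a nuclear protein of cycling cells, and lies on chromosome 7 (135689784 to 135716361, minus strand). It had 1.27, 2.15 and 1.19 CPM in Tbk1+/-;Tak1ΔM/+, 11.5, 25.8 and 23.9 CPM in Tak1ΔM/+, 71.0, 15.4 and 61.2 CPM in Tbk1+/-, and 19.8, 22.6 and 7.90 CPM in WT. The cells with both alleles were below every other library, and 2 of the 3 Tbk1+/- libraries were above every other. The additive level was 59.7 CPM, against a mean of 1.54 CPM measured. The interaction was -5.34 ± 0.79 (adjusted p = 0.0261), a fitted level 40.6 times below the additive one, and it was -3.12 once the mitochondrial share was a covariate (adjusted p = 0.608).

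Ube2c, the ubiquitin-conjugating enzyme of the anaphase-promoting complex, had 1.64, 0.904 and 1.59 CPM in Tbk1+/-;Tak1ΔM/+, 6.88, 10.2 and 11.6 CPM in Tak1ΔM/+, 29.9, 11.8 and 41.4 CPM in Tbk1+/-, and 16.1, 14.1 and 9.12 CPM in WT. Kif11, a motor of the spindle, had 1.01, 2.03 and 2.29 CPM in Tbk1+/-;Tak1ΔM/+, 5.28, 19.5 and 11.3 CPM in Tak1ΔM/+, 39, 14 and 40.1 CPM in Tbk1+/-, and 13.6, 19.2 and 16.1 CPM in WT. In both genes the cells with both alleles were below all 9 other libraries and replicate 2 of Tbk1+/- stood among the WT values. The interaction was -3.81 ± 0.59 for Ube2c (adjusted p = 0.0261) and -3.69 ± 0.69 for Kif11 (adjusted p = 0.0426).

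Shcbp1 and Ccnb1, the cyclin that enters mitosis with CDK1, were called from the same list at -3.84 ± 0.71 and -3.49 ± 0.73 (adjusted p = 0.0426 and 0.0464). Outside the list, Ncapg, a condensin subunit, Nek2, a centrosome kinase, and Cenpi, a centromere protein, were called at -4.25 ± 0.93, -3.29 ± 0.71 and -3.20 ± 0.63 (adjusted p = 0.0495, 0.0486 and 0.0453). Dlgap5, a spindle protein, was the 1 mitotic gene in the leading opposing genes. It averaged 2.52 ± 1.22 CPM in Tbk1+/-;Tak1ΔM/+, 6.42 ± 1.41 in Tak1ΔM/+, 14.7 ± 7.71 in Tbk1+/- and 4.36 ± 1.37 in WT (SD, n = 3 each), and its interaction was -3.13 ± 0.64 (adjusted p = 0.0464). Of 31 tested kinesin genes, counted by symbol after the values were seen, 3 were called below 0 and 21 were below 0. The shares over all genes tested were 0.634% called below 0 and 6494 of 12943 below 0.

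The S phase genes lay closer to the additive level. Of 25 tested genes of DNA replication 22 were below 0 (median -0.50) and 1 was called. This was Tk1, thymidine kinase, at 2.71, 3.50 and 3.73 CPM in Tbk1+/-;Tak1ΔM/+, 7.74, 9.68 and 7.76 CPM in Tak1ΔM/+, 15.4, 10.5 and 21.1 CPM in Tbk1+/-, and 7.61, 7.01 and 8.19 CPM in WT. Cells with both alleles were the lowest and Tbk1+/- cells the highest, without overlap, and the interaction was -2.38 ± 0.40 (adjusted p = 0.0352).

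The mean of the 26 mitosis genes was 1.35, 1.00 and 1.56 log2 CPM in Tbk1+/-;Tak1ΔM/+, 2.68, 3.69 and 3.40 in Tak1ΔM/+, 5.23, 3.38 and 5.32 in Tbk1+/-, and 3.93, 4.19 and 3.58 in WT. The number of called members ran from 0 to 23 with a library left out, with 23 reached without replicate 2 of Tbk1+/-, and the median from -3.17 to -2.50. Adding the mitochondrial share as a covariate gave a median of -1.54 (0 called) and adding the Y-linked level -2.61 (0 called). In bulk libraries fewer cycling cells and less of these RNAs in each cell cannot be told apart.

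**Figure D3:**
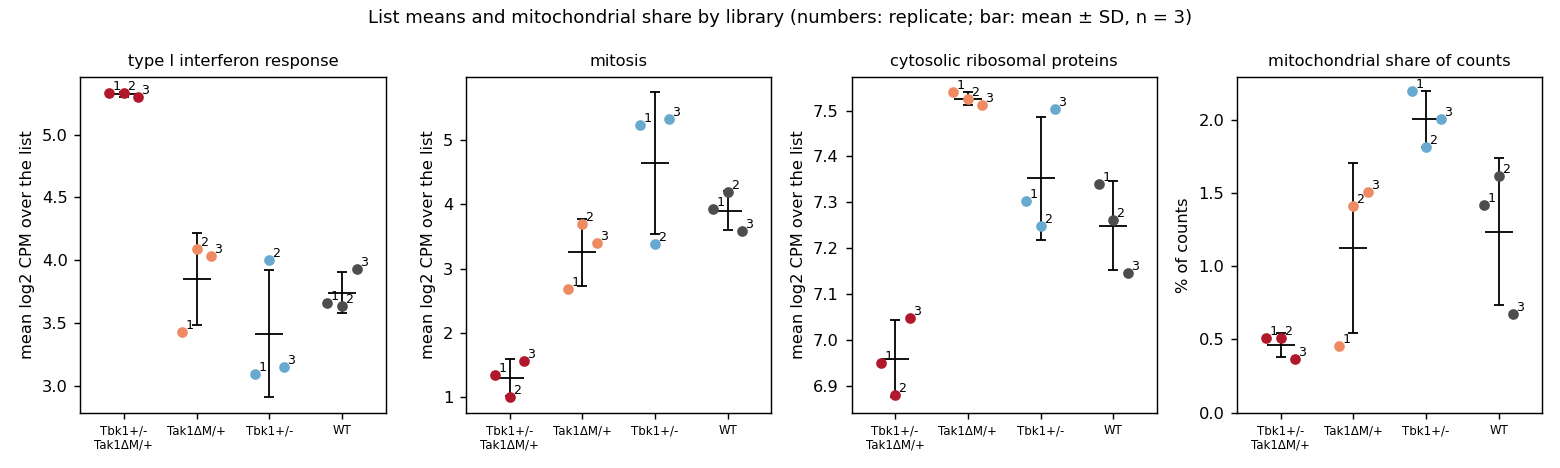
Mean log2 CPM over the members of 3 gene lists and the mitochondrial share of counts, for each library, by genotype, with the replicate number beside each point and bars for the mean ± SD of 3. Replicate 2 of Tbk1+/- stands apart in the interferon list (4.0) and in the mitosis list (3.38), and replicate 1 of Tak1ΔM/+ and replicate 3 of WT have the lowest mitochondrial shares outside Tbk1+/-;Tak1ΔM/+.

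TTTGAA, the core of the element that cell cycle genes carry near their start, was searched in the same promoters on both strands. It was present in 10.4% of all promoters, in 8 of 21 promoters of the mitosis list (38.1%), in 3 of the 4 called list members with a promoter, in 7 of 57 promoters of genes called below 0 (12.3%) and in 5 of 41 of genes called above 0 (12.2%). It was also present in 9 of 32 promoters of the interferon list (28.1%). Mki67 (chr7:135716380-135716629, minus strand) had 2 matches, and Ube2c (chr2:164769679-164769928, plus strand) and Kif11 (chr19:37376132-37376381, plus strand) had 1 each, both on the opposite strand, so that the capitals there read as the reverse complement. Ccnb1 had 0 matches in this window. Its gene start lay 84 bases from that of the GENCODE annotation, against 18 for Mki67, 31 for Ube2c and 21 for Kif11.
Mki67: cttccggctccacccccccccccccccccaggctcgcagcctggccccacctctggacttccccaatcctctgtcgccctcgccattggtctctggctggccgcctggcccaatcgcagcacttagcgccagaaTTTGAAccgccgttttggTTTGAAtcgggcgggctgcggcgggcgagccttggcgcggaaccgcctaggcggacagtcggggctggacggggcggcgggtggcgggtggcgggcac
Ube2c: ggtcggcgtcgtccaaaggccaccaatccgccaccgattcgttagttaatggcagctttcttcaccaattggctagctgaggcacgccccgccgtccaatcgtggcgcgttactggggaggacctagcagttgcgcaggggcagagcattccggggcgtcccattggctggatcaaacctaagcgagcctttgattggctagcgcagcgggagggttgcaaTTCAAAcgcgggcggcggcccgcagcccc
Kif11: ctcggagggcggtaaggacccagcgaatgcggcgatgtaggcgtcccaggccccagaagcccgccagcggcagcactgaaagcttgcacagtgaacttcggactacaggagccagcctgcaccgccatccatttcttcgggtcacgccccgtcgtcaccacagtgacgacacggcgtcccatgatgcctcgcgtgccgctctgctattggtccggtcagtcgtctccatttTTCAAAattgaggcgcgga

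Of 30 tested cytosolic ribosomal protein genes of the list 8 were called and all 30 were below 0 (median -0.66). Over all genes tested, 0.634% were called below 0 and 6494 of 12943 lay below 0. With scaling by library totals 0 of the 30 were called (median -0.46), and with a library left out 0 to 17. By gene symbol, a count made after the values were seen, 26 of 86 were called, all below 0, with sizes from 0.69 to 1.48, and 84 of 86 were below 0. Rps20, a protein of the small subunit, had 159, 127 and 178 CPM in Tbk1+/-;Tak1ΔM/+, 262, 293 and 280.3 CPM in Tak1ΔM/+, 272, 227 and 292 CPM in Tbk1+/-, and 239.8, 228 and 212 CPM in WT. The cells with both alleles were below all others, while both genotypes with 1 allele lay within or above the range of WT. The interaction was -1.07 ± 0.20 (adjusted p = 0.0426). Rps7 and Rpl32 were called at -0.97 ± 0.17 and -0.96 ± 0.19 (adjusted p = 0.0352 and 0.0457). The list median was between -0.68 and -0.60 with a library left out and -0.65 once the mitochondrial share was in the fit. Ribosomal protein genes have many processed copies in the genome, so how reads were shared among copies is uncertain.

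Mitochondrially encoded genes were below the additive level together. All 13 tested protein-coding genes were below 0 (median -1.99) and 1 was called. This was mt-Nd3, a subunit of complex I, with 0, 0 and 0.398 CPM in Tbk1+/-;Tak1ΔM/+, 4.96, 4.75 and 7.42 CPM in Tak1ΔM/+, 6.76, 8.63 and 6.91 CPM in Tbk1+/-, and 7.54, 7.90 and 5.29 CPM in WT. It was near absent in the cells with both alleles and at like levels in the other genotypes, with an interaction of -5.21 ± 0.89 (adjusted p = 0.0352), a fitted value that depends on the prior count. The transfer RNAs mt-Ty and mt-Ta were called at -3.42 ± 0.71 and -3.27 ± 0.65 (adjusted p = 0.0464 and 0.0453). The list median was 0.21 once the mitochondrial share was in the fit, which is made of these same genes. Among 93 nuclear genes of oxidative phosphorylation, counted by symbol after the values were seen, 3 were called and 84 were below 0 (median -0.41). The shares over all genes tested were 0.634% called below 0 and 6494 of 12943 below 0.

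Gpr34, a lysophosphatidylserine receptor of microglia on the X chromosome, had 31.7, 25.5 and 19.4 CPM in Tbk1+/-;Tak1ΔM/+, 82.5, 88.6 and 102 CPM in Tak1ΔM/+, 257, 170 and 134 CPM in Tbk1+/-, and 89.9, 136 and 168 CPM in WT. The cells with both alleles were below all others without overlap, and the interaction was -2.35 ± 0.37 (adjusted p = 0.0278). It was the 1 called of 24 tested homeostatic microglia genes, of which 18 were below 0 (median -0.34).

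Cd81, a tetraspanin, was named after its values were seen, since after Isg15 it had the smallest adjusted p. It had 95.1, 91.1 and 97.4 CPM in Tbk1+/-;Tak1ΔM/+, 214, 222 and 243 CPM in Tak1ΔM/+, 314, 269 and 320 CPM in Tbk1+/-, and 286, 248 and 201 CPM in WT. The libraries with both alleles were close to each other and below all 9 others. The interaction was -1.56 ± 0.19 (adjusted p = 0.0102), and it was called in 9 of the 12 fits with a library left out.

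Alox5, the 5-lipoxygenase that starts leukotriene synthesis, had 2.28, 0.678 and 0.647 CPM in Tbk1+/-;Tak1ΔM/+, 8.33, 13.3 and 15.1 CPM in Tak1ΔM/+, 10.6, 7.55 and 21.5 CPM in Tbk1+/-, and 10.6, 17.6 and 5.64 CPM in WT. Its partner Alox5ap, named after its values were seen, averaged 23.3 ± 5.07 CPM in Tbk1+/-;Tak1ΔM/+, 108 ± 25.8 in Tak1ΔM/+, 126 ± 64.5 in Tbk1+/- and 103 ± 27.8 in WT (SD, n = 3 each). In both genes the 3 genotypes without both alleles overlapped each other and lay above the cells with both. The interaction was -3.51 ± 0.76 for Alox5 (adjusted p = 0.0494) and -2.49 ± 0.50 for Alox5ap (adjusted p = 0.0453).

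Srgn, the proteoglycan of secretory granules, averaged 61.8 ± 9.09 CPM in Tbk1+/-;Tak1ΔM/+, 233 ± 108 in Tak1ΔM/+, 730 ± 435 in Tbk1+/- and 309.8 ± 118 in WT, and had an interaction of -3.15 ± 0.68 (adjusted p = 0.0494). Replicate 2 of Tbk1+/-, at 234 CPM, was far below the 1051 and 904 CPM of the other libraries of that genotype. Ctla2a, a cysteine protease inhibitor with a close paralog in Ctla2b, and Atp2a3, a calcium pump of the endoplasmic reticulum, were called at -3.14 ± 0.60 and -4.95 ± 1.04 (adjusted p = 0.0426 and 0.0464). Rnase4, a secreted ribonuclease named after its values were seen, averaged 45.2 ± 4.44 CPM in Tbk1+/-;Tak1ΔM/+, 141 ± 26.8 in Tak1ΔM/+, 139 ± 24.6 in Tbk1+/- and 126 ± 9.98 in WT. Its interaction was -1.77 ± 0.24 (adjusted p = 0.0156), and its exons overlap those of Ang. Exons of 23 of the 128 called genes overlap another tested gene (19.0% of all genes tested do), Cd81, Irf7, Nfkb2 and Tk1 among them, and the library chemistry does not mark the strand. Trp53inp1, the 1 called of 20 tested p53 target genes (11 above 0, median 0.06), averaged 20.2 ± 3.74 CPM in Tbk1+/-;Tak1ΔM/+, 39.4 ± 10.1 in Tak1ΔM/+, 84.7 ± 21.5 in Tbk1+/- and 53.2 ± 12.0 in WT, with -1.63 ± 0.34 (adjusted p = 0.0464).

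**Figure D4:**
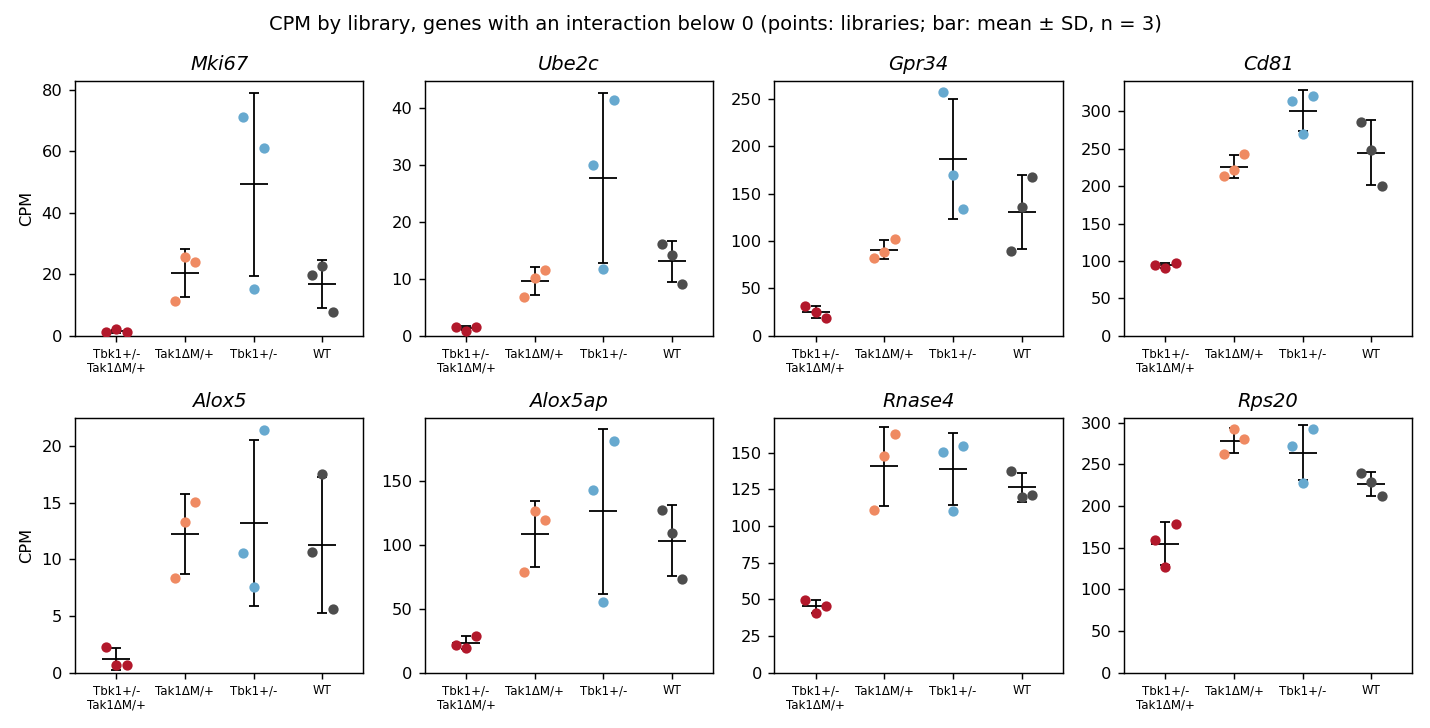
CPM in each library for 8 genes with an interaction below 0, by genotype, with points for libraries and bars for the mean ± SD of 3. Each gene has its 3 Tbk1+/-;Tak1ΔM/+ libraries below the 9 others, from Mki67 at 1.19 to 2.15 CPM to Rps20 at 127 to 178 CPM.

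Genes with a called average change and no called interaction give the additive counterpart. The average change with the Tak1 allele over both backgrounds was called for 1340 genes (10.4%), 570 higher (4.40%) and 770 lower (5.95%), and that with the Tbk1 allele for 29 genes (0.224%), 9 higher (0.0695%) and 20 lower (0.155%). A gene was counted as additive where such an average was called, the interaction was not, and its 95% interval lay between -1 and 1. This held for 407 genes with the Tak1 allele (3.14%), 154 higher and 253 lower, for 10 with the Tbk1 allele (0.0773%), and for 6 with both. The rule does not ask for a change on each background. Its limit of 1 is larger than several of the average changes given below, so a change mostly on 1 background can pass. The counts of called averages ran from 745 to 1803 and from 7 to 188 when a library was left out, with the low of 745 without replicate 3 of Tbk1+/-;Tak1ΔM/+ and the high of 188 without replicate 2 of Tbk1+/-. The additive counts ran from 182, without replicate 3 of Tbk1+/-;Tak1ΔM/+, to 456 for the Tak1 allele, and from 4 to 64, without replicate 2 of Tbk1+/-, for the Tbk1 allele. The average Tak1 effect had 0 calls with the mitochondrial share as a covariate (1324 at an unadjusted p under 0.05). Under scaling by library totals alone, 67.4% of its calls were higher, against 42.5% with TMM.

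Pcbp1, a poly(C)-binding protein of messenger RNA, had 232, 247 and 207 CPM in Tbk1+/-;Tak1ΔM/+, 254, 256 and 155 CPM in Tak1ΔM/+, 126, 115 and 119.7 CPM in Tbk1+/-, and 131, 131 and 133 CPM in WT. The libraries with the Tak1 allele were above those without it on either background. Its average change with the Tak1 allele was 0.84 ± 0.12 (adjusted p = 0.00176) and its interaction 0.17 (95% interval -0.33 to 0.67, adjusted p = 0.774). Ssbp4 and Nudt9 were higher on average by 0.97 ± 0.13 and 0.67 ± 0.10 (adjusted p = 0.00126 and 0.00181). Pon2, a lactonase of the paraoxonase family, and Ero1lb, an oxidase of the endoplasmic reticulum, were lower, at -0.72 ± 0.10 and -1.0 ± 0.14 (adjusted p = 0.00179 each).

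Il7r, the receptor chain for interleukin 7, was lower with each allele. It had 21.2, 26.3 and 26.3 CPM in Tbk1+/-;Tak1ΔM/+, 52.8, 55.8 and 63.8 CPM in Tak1ΔM/+, 46.7, 56.5 and 39.3 CPM in Tbk1+/-, and 89.0, 128 and 86.7 CPM in WT. Cells with both alleles were lowest, WT highest, and the genotypes with 1 allele lay between and overlapped each other. The average change was -1.16 ± 0.13 with the Tbk1 allele (adjusted p = 0.00337) and -0.88 ± 0.13 with the Tak1 allele (adjusted p = 0.00211), and the interaction was -0.13 (95% interval -0.69 to 0.42, adjusted p = 0.86).

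Hist1h1c, a linker histone, was higher with each allele, at 442, 428 and 435 CPM in Tbk1+/-;Tak1ΔM/+, 332, 223 and 235 CPM in Tak1ΔM/+, 351, 373 and 421 CPM in Tbk1+/-, and 182, 173 and 157 CPM in WT. Cells with both alleles were highest and WT lowest, without overlap. The average changes were 0.94 ± 0.11 with the Tbk1 allele (adjusted p = 0.00337) and 0.41 ± 0.10 with the Tak1 allele (adjusted p = 0.0253), with an interaction of -0.43 (95% interval -0.88 to 0.01, adjusted p = 0.318). Rcan1, an inhibitor of calcineurin, was higher with the Tbk1 allele by 0.85 ± 0.12 (adjusted p = 0.0116) and Esyt1, a tether between membranes, lower at -0.87 ± 0.13 (adjusted p = 0.0132). Lyz2, the macrophage lysozyme, averaged 8352 ± 496 CPM in Tbk1+/-;Tak1ΔM/+, 18307 ± 4107 in Tak1ΔM/+, 29351 ± 9114 in Tbk1+/- and 37183 ± 2179 in WT (SD, n = 3 each). It was lower with the Tak1 allele on average by -1.42 ± 0.15 (adjusted p = 0.000533), and its interaction was -0.79 ± 0.29 (adjusted p = 0.193). That interaction was called in 1 of 24 alternatives, and Lyz2 did not meet the rule for additive genes.

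By edgeR's test no member was called in the remaining biological lists. At an unadjusted p under 0.05 it had 15 glycolysis genes, 10 autophagy, 10 complement, 9 antioxidant, 6 antigen presentation, 6 disease-associated microglia, 5 stress response, 4 heat shock, 2 alternative activation genes and 0 in the other lists. DESeq2 called 3 antigen presentation genes above 0 and 1 below, and below 0 it called 4 autophagy, 3 complement, 3 glycolysis, 3 antioxidant, 1 alternative activation and 1 stress response gene. Of these lists limma-trend called 1 glycolysis gene and limma-voom none. Below 0 on balance were glycolysis and hypoxia response with 22 of 26 genes below 0 (median -0.77), antioxidant response with 17 of 21 (median -0.78), alternative activation with 9 of 12 (median -0.84), cholesterol biosynthesis with 19 of 21 (median -0.23), autophagy and lysosome with 21 of 31 (median -0.25), complement and phagocytic receptors with 18 of 26 (median -0.15), integrated and ER stress response with 14 of 24 (median -0.18) and linker histones with 4 of 5 (median -0.43). Nearest to a call in these lists were Ankrd37 at -2.34 ± 0.53 (adjusted p = 0.0518), Prdx1, a peroxiredoxin, at -1.05 ± 0.24 (adjusted p = 0.0544), and Arg1, the arginase of alternatively activated macrophages, at -3.55 ± 0.83 (adjusted p = 0.0557). Above 0 on balance were antigen presentation with 17 of 21 genes (median 0.40), heat shock and immediate early genes with 12 of 19 (median 0.23), MAP kinase phosphatases with 10 of 16 (median 0.17) and disease-associated microglia with 13 of 25 (median 0.03). With the mitochondrial share as a covariate the medians of alternative activation and of S phase genes turned to 0.37 and 0.16, and those of the heat shock, MAP kinase phosphatase and p53 lists to -0.03, -0.04 and -0.24. With the Y-linked level that of disease-associated microglia turned to -0.28. Glycolysis and antioxidant genes had up to 10 and 7 calls below 0 when a library was left out.

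**Figure D5:**
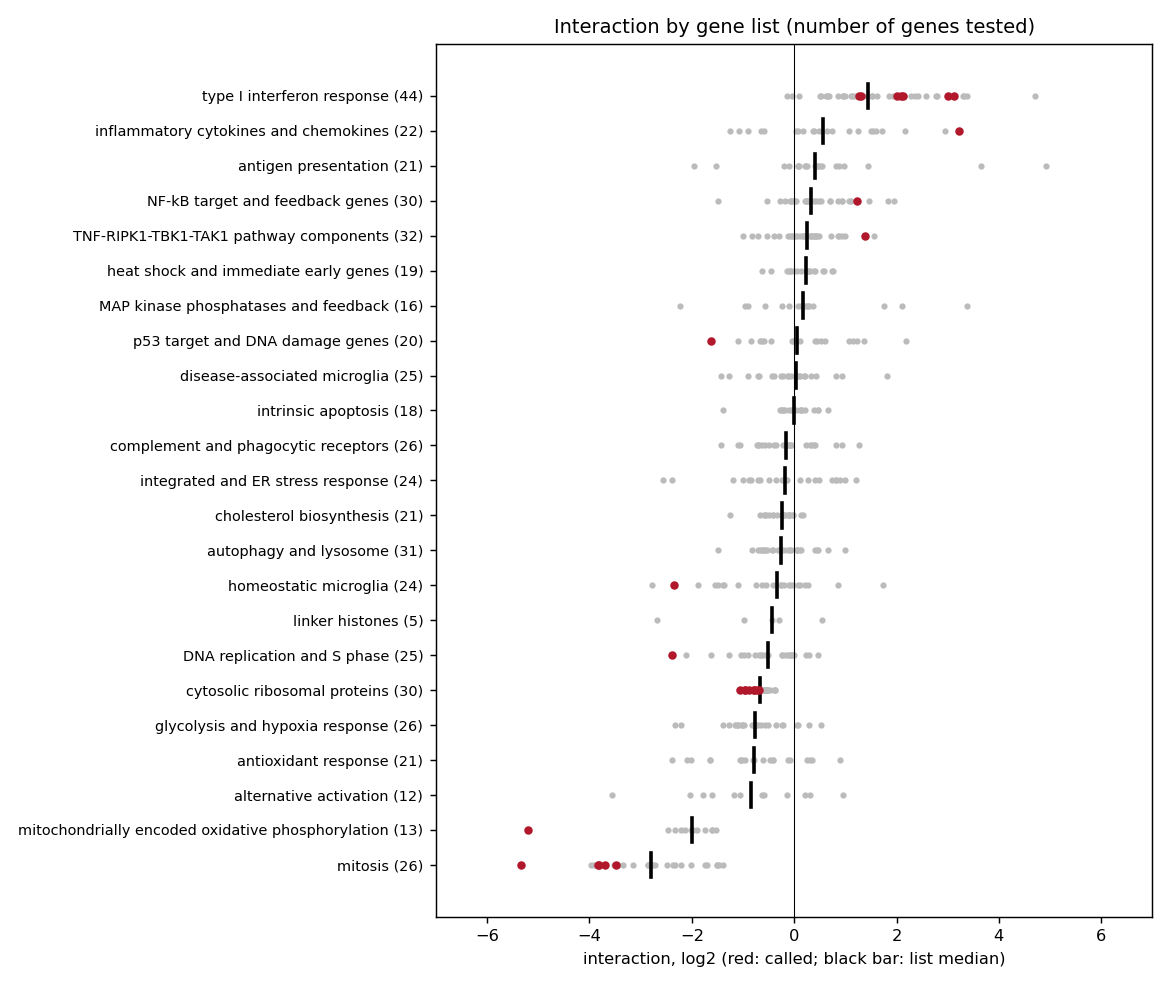
Interaction on the log2 scale for the tested members of 23 gene lists, with red for called genes, grey for others and a black bar for the list median. The interferon list lies to the right at a median of 1.44 and the mitosis list to the left at -2.80, while the ribosomal list is a narrow group at -0.66.

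By edgeR's quasi-likelihood test no marker of another cell type was called, against 0.989% of all genes tested. At an unadjusted p under 0.05 it had 2 astrocyte, 3 oligodendrocyte, 1 neuron, 1 fibroblast, mural or endothelial, 4 border macrophage and 0 other blood cell markers. DESeq2 called 1 astrocyte, 2 oligodendrocyte and 1 neuron marker above 0 and 2 border macrophage markers below 0, and both limma fits called 1 oligodendrocyte marker. The 5 sex-linked genes tested were all above 0 (median 4.53). None was called by edgeR, with 3 at an unadjusted p under 0.05, while DESeq2 called 1, both limma fits 0, and edgeR without a low-count filter 4. Of 9 tested oligodendrocyte lineage markers 8 were above 0 (median 3.44), and the list summed to 187 to 190.1 CPM of the library total in Tbk1+/-;Tak1ΔM/+, 131 to 147 in Tak1ΔM/+, 114 to 132 in Tbk1+/- and 136 to 146 in WT, with Mog at 0 in every library. Olig1, a transcription factor of the lineage, averaged 11.9 ± 3.59 CPM in Tbk1+/-;Tak1ΔM/+, 2.32 ± 1.13 in Tak1ΔM/+, 3.09 ± 2.38 in Tbk1+/- and 6.5 ± 2.02 in WT (SD, n = 3 each), at an interaction of 3.44 ± 0.79 (adjusted p = 0.0544). Astrocyte markers summed to 25.8 to 33.3 CPM in Tbk1+/-;Tak1ΔM/+, 32.5 to 45.5 in Tak1ΔM/+, 28.2 to 38.4 in Tbk1+/- and 47.3 to 54.2 in WT (4 of 8 above 0, median 1.17). Neuron markers summed to at most 9.99 CPM in Tbk1+/-;Tak1ΔM/+, 5.40 in Tak1ΔM/+, 4.70 in Tbk1+/- and 22.4 in WT (4 of 4 tested above 0, median 3.11), with Nefm at 0 throughout.

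Markers of fibroblasts, mural and endothelial cells summed to 93.2 to 121 CPM in Tbk1+/-;Tak1ΔM/+, 155 to 262 in Tak1ΔM/+, 171 to 1186 in Tbk1+/- and 132 to 421 in WT, with Rgs5 and Vtn at 0 (5 of 8 above 0, median 0.93). Most of these sums was the single gene Fn1. It had 84.0 to 107 CPM in Tbk1+/-;Tak1ΔM/+, 146 to 254 in Tak1ΔM/+, 163 to 1155 in Tbk1+/- and 116 to 402 in WT. Border macrophage and monocyte markers summed to 10216 to 11300.0 CPM in Tbk1+/-;Tak1ΔM/+, 15686 to 20605 in Tak1ΔM/+, 22965 to 37075 in Tbk1+/- and 33697 to 40633 in WT, with Chil3 at 0 (8 of 9 below 0, median -1.10, which turned to 0.10 with the mitochondrial share as a covariate). Lyz2, which microglia in culture also express, made up most of each sum. In Tbk1+/-;Tak1ΔM/+ it had 8864 to 9948 CPM, and Ms4a7 followed with 726 to 800 CPM. With the Y-linked level the medians of astrocyte and of fibroblast, mural and endothelial markers turned to -0.05 and -0.32, and that of the fibroblast, mural and endothelial markers was -0.22 without replicate 1 of WT. Lyve1, which marks macrophages at the borders of the brain, was at 94.3 and 152 CPM of the total in replicates 1 and 3 of Tbk1+/-. It was at 0.517 CPM in replicate 2, the order of the mitosis list in these libraries. The border macrophage markers did not share 1 order. Pf4 (335, 121 and 356 CPM in replicates 1, 2 and 3) and F13a1 (453, 73.8 and 447) were also lowest in replicate 2, as was S100a4. Ms4a7 (340, 804 and 244) and Lyz2 (25469, 35723 and 21386) were highest in replicate 2, as was Ccr2, and Mrc1 was in between there. Of the 12 microglia markers 8 were below 0 (median -0.31), and of other blood cell markers the 1 gene tested, S100a8, was at -1.80 ± 0.95 (adjusted p = 0.37). The part of these cells in the called differences was not tested.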

How the data were processed

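RNA of cultured microglia was made into Smart-seq2 libraries, which do not mark the strand, and sequenced as paired reads of 50 bases, per the labels' protocols. The deposited values are raw counts per gene. STAR, featureCounts and mm10 are named, per the submitters' processing notes, with no versions, while the labels' protocol names RSEM, so which tool made the counts is not settled. From the deposited counts, genes were filtered with filterByExpr over the 4 genotypes, scaled by TMM and tested with edgeR 4.0.16 (quasi-likelihood, R 4.3.3) in 1 fit of 12 libraries with 8 residual degrees of freedom, with Benjamini-Hochberg adjustment over all genes tested. CPM are TMM-scaled unless given as CPM of the library total. Only the interaction test was run on simulated counts, with a change in Tbk1+/-;Tak1ΔM/+ alone and none with either allele by itself. The classes, the additive rule and the lists were not simulated, nor were differences in sex or mitochondrial share.

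Named genes were Tbk1, Map3k7, Ripk1, Lyz2, the 15 largest interactions on either side with a mean of at least 5 CPM, the 5 largest of each class, the 5 smallest p-values of each additive group, and up to 4 members of each list, of which a few are not reported here. Members and lists were chosen with earlier results of these data known. Alternatives were DESeq2 1.42.0, limma 3.58.1, other scalings and filters, all 18 libraries, a replicate block, covariates, a minimum change, and each library left out. The linear-scale sign and the list counts under these settings were added after seeing the data. Coordinates are GRCm38, which is mm10.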

Additional observations from a re-analysis of the deposited data

Results flagged for a closer look

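The change with the Tak1 allele differed between the Tbk1+/- and the WT background for 128 genes by the test of the difference itself (edgeR's quasi-likelihood test). All values are interactions on the log2 scale.

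Below the additive level in cell division were Mki67 (-5.34), Ncapg (-4.25), Shcbp1 (-3.84), Ube2c (-3.81), Kif11 (-3.69), Ccnb1 (-3.49), Nek2 (-3.29), Cenpi (-3.20), Dlgap5 (-3.13) and Tk1 (-2.38). Ribosomal and mitochondrial genes below it were mt-Nd3 (-5.21), mt-Ty (-3.42), mt-Ta (-3.27), Rps20 (-1.07), Rps7 (-0.97) and Rpl32 (-0.96). The others below it were Atp2a3 (-4.95), Alox5 (-3.51), Srgn (-3.15), Ctla2a (-3.14), Gpr34 (-2.35) and Trp53inp1 (-1.63). Above it among interferon-induced genes were Cxcl10 (3.22), Isg15 (3.13), Oas2 (3.0), Irf7 (2.13), Usp18 (2.08), Slfn5 (2.01), Slfn8 (1.89) and Phf11d (1.88). The others above it were Fscn1 (3.19), Mmp14 (3.08), Rgl1 (2.89), Ccnd2 (2.69), Wdhd1 (2.42), Ralgds (2.27), Ikbke (1.39) and Nfkb2 (1.24).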

How the results depend on the processing

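The interaction of all 128 called genes kept its sign in all 24 alternatives that measured it (at 5 CPM or more, 114 genes). These fits reuse the same counts for genes called on the interaction, so a kept sign is no separate support. The count of calls did not hold. It was 692 with DESeq2, 54 with library totals in place of TMM, 934 without a low-count filter, 193 with a mean of at least 5 CPM, 235 with all 18 libraries, 0 with the mitochondrial share and 11 with the Y-linked level as covariates, and 1 for a change above 0.5. Leaving out a library gave 0 to 689. For the average Tak1 allele effect the count was 2027 without a low-count filter, 0 with the mitochondrial share (1324 at an unadjusted p under 0.05), 170 for a change above 0.5, and 745 to 1803 with a library left out. For the average Tbk1 allele effect it was 293 with DESeq2, 45 with limma-trend, 433 without a filter, 46 with at least 5 CPM, 49 with all 18 libraries, 69 with the mitochondrial share, 19 with the Y-linked level, 0 for a change above 0.5 (345 at an unadjusted p under 0.05), and 7 to 188 with a library left out. The cause was not tested.

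Of the 90 named genes that were not called, 50 were called in at least 1 alternative, Ripk1 and Lyz2 in 1 each. The sign changed somewhere for 16 of the 90. With library totals Ero1lb was 0.0080 and Il7r 0.088. With the mitochondrial share, values were -0.62 for Tbk1, -0.34 for Map3k7, -0.12 for Ssbp4, -0.056 for Pcbp1, 0.19 for Il7r, 0.10 for Mrc1, -0.048 for Zfp36, 0.30 for Dusp6, -0.14 for H1f0, 0.17 for Hist1h1e, -0.22 for Stmn2 and 0.10 for S100a4. With the Y-linked level they were -1.21 for Ddx3y, -5.50 for Kdm5d and -0.23 for Slc1a2. With a library left out Tbk1 ran from -0.021 to 0.34, Pcbp1 from -0.024 to 0.29 and Il7r from -0.34 to 0.0053. The cause was not tested.

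With the replicate number as a block, 1 interaction was called (Isg15), 1067 genes in the average Tak1 effect and 19 in the average Tbk1 effect. The labels do not pair the libraries: of 18 same-numbered pairs, 0 had a correlation of deviations over 0.1 (range -0.058 to 0.039), and in 5 of 36 cases the best match had the same number.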

Other observations

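Called genes differed in transcript length between directions, a comparison made after the values were seen. The longest annotated transcript had a median of 3986 bases for the 46 genes called above the additive level, 1602 bases for the 82 called below it and 3222 bases for all genes with a length. Without the ribosomal protein genes, the 56 remaining genes called below it had a median of 1934.5 bases. The median interaction was -0.43 for 1032 genes under 1000 bases, -0.11 from 1000 to 2000, 0.01 from 2000 to 4000 and 0.11 above 4000 bases. The part of length in the called differences was not tested.

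Against all 15 other libraries of the study, those with Ripk1 D138N alleles included, the 3 Tbk1+/-;Tak1ΔM/+ libraries were the highest for 25 of the 128 called genes and the lowest for 63. The share of all genes tested that do so was not counted for the 15 libraries. Against the 9 others in the fit it was 4.80% and 4.69%. The genes were called on a departure of these same libraries, so nothing is read from these counts.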
